A study of Homo sapiens with 6 samples.

Results

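The HOX cluster genes encode the homeodomain transcription factors of the HOXA, HOXB, HOXC and HOXD clusters. They were taken as the rows annotated as protein-coding whose symbol is HOX, a cluster letter and a paralog number, which gave 35 of the 30651 genes in the count table. A human symbol table holds 39 such symbols, and HOXD1, HOXD4, HOXD8 and HOXD13 were not analysed here. The genes were measured by RNA sequencing in PC-3 cells, an established human prostate cancer line first grown from a metastasis in bone, kept in DMEM/F12 with serum. The MTA1 group (3 libraries) carries sh in the file headers, as short hairpin constructs commonly do, and Ctrl (3 libraries) carries NC. MTA1 belongs to NuRD, a complex that remodels nucleosomes and removes histone acetyl groups. Per the labels the work used lentivirus and stable clones; how many hairpins and clones were used is not given. The labels do not say that replicates were grown apart, so a p-value reflects only how much these libraries vary, which may be technical variation.

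HOX genes sit in their clusters in the order in which they act along the body axis, with low paralog numbers at the anterior end and high numbers at the posterior end. Genes of different clusters that share a number descend from one ancestral gene and bind similar DNA, often together with the TALE homeodomain cofactors of the PBX and MEIS families. Polycomb complexes keep the clusters silent and MLL complexes keep them active. In the prostate, the posterior genes HOXB13 and HOXA13 are known for their part in development.

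The libraries held 29909172 to 30938820 counts in the MTA1 group and 31726013 to 33849262 in Ctrl. The MTA1 gene had 528, 572 and 519 counts in the MTA1 libraries, against 1185, 1331 and 1352 counts in Ctrl, and fell (log2 fold change -1.21 ± 0.0544 SE, edgeR adjusted p = 4.34e-13). The prostate luminal gene KLK3 had at most 1 count in a library. The 8 fibroblast markers summed to 37.5 to 40.1 CPM in the MTA1 libraries and 49.6 to 55.4 CPM in Ctrl. Of the 7 tested, COL1A1 and PDGFRB fell, FAP rose and 4 were not called. The 6 leukocyte markers listed, of 8, summed to 2.05 to 2.10 CPM in the MTA1 libraries and 3.33 to 3.39 CPM in Ctrl. Of the 3 tested, 2 fell, CSF1R among them, and the pan-leukocyte gene PTPRC had 0 to 3 counts in a library. Over all tested genes 28.6% were lower and 29.5% higher. The 5 endothelial markers summed to 11.3 to 11.6 CPM in the MTA1 libraries and 11.5 to 13.5 CPM in Ctrl, and none of the 3 tested was called. The part of these markers in the HOX results was not tested. In bulk RNA, fewer cells that express a gene and less of its RNA per cell cannot be told apart.

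The HOX pattern of these PC-3 cells was dominated by HOXC9, HOXB7 and HOXC10. Levels between genes are compared in FPKM, the authors' values scaled for gene length and sequencing depth. HOXC9 stood first in both groups, at 21.0 ± 0.0451 FPKM in the MTA1 group and 38.1 ± 0.517 FPKM in Ctrl (SD, n = 3 each). HOXB7 followed, at 13.4 ± 0.160 FPKM in the MTA1 group and 23.4 ± 0.476 FPKM in Ctrl, and then HOXC10, at 9.27 ± 0.542 FPKM in the MTA1 group and 12.0 ± 0.273 FPKM in Ctrl. HOXA4 came next, at 3.59 ± 0.154 FPKM in the MTA1 group and 4.88 ± 0.0872 FPKM in Ctrl. In both groups the libraries of these 4 genes did not overlap with those of the next gene in the order. The next places in the MTA1 group were HOXC8 at 1.89 ± 0.189 FPKM, HOXB5 at 1.64 ± 0.179 FPKM and HOXA5 at 1.33 ± 0.121 FPKM, and in Ctrl HOXA5 at 2.48 ± 0.433 FPKM, HOXC8 at 1.57 ± 0.142 FPKM and HOXB5 at 1.47 ± 0.0954 FPKM. HOXC8 and HOXB5 were within their combined spread in each group.

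**Figure D1:**
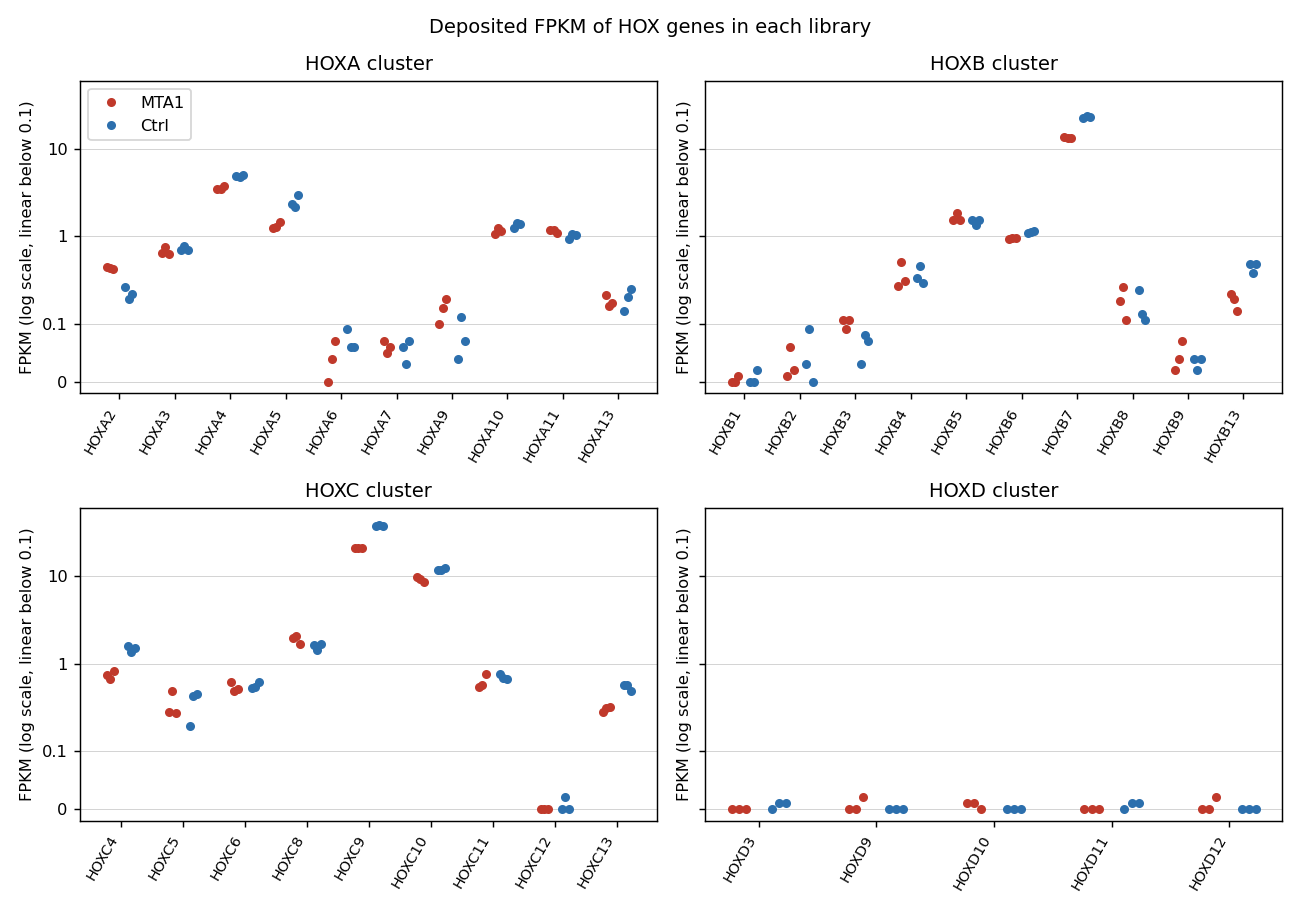
Deposited FPKM of HOX genes, one panel per cluster, genes in order from anterior to posterior, on a log axis that is linear near 0. Each point is a library, 3 of the MTA1 group left of 3 of Ctrl. HOXC9, HOXB7 and HOXC10 stand above the others, lower in every MTA1 library than in any Ctrl library, and the HOXD genes lie at or near 0.

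Summed over all 35 genes, HOX expression was 60.5 ± 0.518 FPKM in the MTA1 group and 93.7 ± 1.39 FPKM in Ctrl, a ratio of 0.646. HOXC9, HOXB7 and HOXC10 made up 71.4% to 73.0% of this sum in the MTA1 libraries and 77.9% to 79.1% in Ctrl. The other 32 genes summed to 16.9 ± 0.545 FPKM in the MTA1 group and 20.1 ± 0.761 FPKM in Ctrl, so most of the gap between the sums lay with the 3 leading genes. By cluster, HOXC summed to 34.7 ± 0.555 FPKM in the MTA1 group and 55.4 ± 0.497 FPKM in Ctrl. HOXB summed to 16.9 ± 0.272 FPKM in the MTA1 group and 27.1 ± 0.420 FPKM in Ctrl, and HOXA to 8.92 ± 0.265 FPKM in the MTA1 group and 11.2 ± 0.609 FPKM in Ctrl. The libraries of the groups did not overlap in any of these 3 cluster sums.

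Of the 35 genes, 24 had enough counts to be tested, and 11 of them changed at an adjusted p under 0.05 (edgeR quasi-likelihood test). HOXC9, HOXB7, HOXC10, HOXA4, HOXA5, HOXA10, HOXC4, HOXC13 and HOXB13 fell, and HOXA2 and HOXB3 rose. Over all 15423 tested genes 58.1% were called, 28.6% lower and 29.5% higher, and over protein-coding genes 61.4% were called. The share of tested HOX genes that fell, 37.5%, lies near this background and the share that rose, 8.33%, below it; neither gap was tested. The median log2 fold change was -0.20 over the tested HOX genes and 0.0015 over all tested genes. All MTA1 libraries lay below all Ctrl libraries for 10 HOX genes and above them for 2, where 30.6% and 32.1% of all tested genes did so. Calls depended on level: 33.7% of all tested genes under 2 CPM, 54.5% of those from 2 to 10 CPM and 72.4% of those above were called. Of the 14 HOX genes with a mean of 2 CPM or more 7 fell and none rose, and of the 10 below it 2 fell and 2 rose. Among all tested genes under 2 CPM, 17.7% were lower and 16.1% higher. From 2 to 10 CPM these shares were 24.5% and 30%, and from 10 CPM up 36.4% and 36%.

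**Figure D2:**
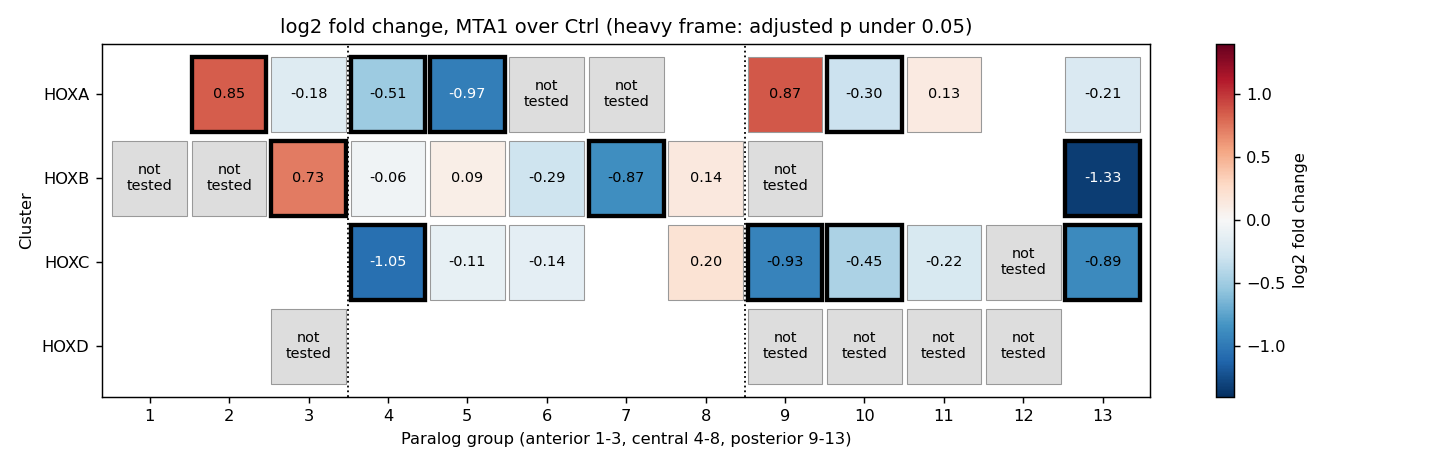
Map of the log2 fold change of MTA1 over Ctrl (colour and number) by cluster (rows) and paralog group (columns), with dotted lines between anterior, central and posterior groups. Heavy frames mark the 11 genes past the threshold, 9 lower and 2 higher; grey genes had too few counts to be tested, and empty places hold no gene or one not shown.

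The HOXC cluster (chromosome 12) held the most abundant HOX gene and 4 of the 9 falls. HOXC9, a gene of thoracic identity in the mouse, had 38.7, 38.6 and 38.4 CPM in the MTA1 libraries, against 73.2, 74.0 and 73.6 CPM in Ctrl. The groups were far apart, with a mean of 52.4% of Ctrl (-0.93 ± 0.0439, edgeR adjusted p = 7.83e-13). HOXC10, which acts at lumbar levels in the mouse, had 25.7, 24.6 and 22.6 CPM in the MTA1 libraries, against 32.9, 32.3 and 34.0 CPM in Ctrl. All MTA1 libraries were below all Ctrl libraries (-0.45 ± 0.0557, edgeR adjusted p = 9.76e-07). HOXC8, which lies next to HOXC9, had 5.25, 5.46 and 4.45 CPM in the MTA1 libraries, against 4.56, 3.91 and 4.71 CPM in Ctrl. The groups overlapped and HOXC8 was not called (0.20 ± 0.114, edgeR adjusted p = 0.139); it passed as higher when MTA1 replicate 3 was left out (adjusted p = 0.0464) or libraries were scaled by size only (0.049).

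HOXC4, the most anterior gene of the cluster, had 2.26, 2.02 and 2.51 CPM in the MTA1 libraries, against 5.05, 4.24 and 4.80 CPM in Ctrl. It fell without overlap between the groups (-1.05 ± 0.131, edgeR adjusted p = 9.44e-07). HOXC13, a regulator of hair keratin genes at the posterior end, had 22, 26 and 26 counts in the MTA1 libraries, against 48, 50 and 44 counts in Ctrl, and fell as well (-0.89 ± 0.210, edgeR adjusted p = 0.00122). HOXC6 had 2.36, 1.86 and 1.93 CPM in the MTA1 libraries, against 2.14, 2.14 and 2.49 CPM in Ctrl. HOXC11 had 1.97, 2.08 and 2.74 CPM in the MTA1 libraries, against 2.88, 2.53 and 2.52 CPM in Ctrl. Both overlapped between the groups and neither was called, at -0.14 ± 0.161 for HOXC6 and -0.22 ± 0.157 for HOXC11. HOXC5 averaged 0.620 ± 0.228 CPM in the MTA1 group and 0.667 ± 0.271 CPM in Ctrl and was not called (-0.11 ± 0.328). In GENCODE 29 exons of 16 of the 35 HOX genes overlap those of another gene on the same strand, so the split of reads is uncertain. Among called genes these are HOXC4, HOXC9, HOXC10, HOXA4, HOXA10 and HOXB3, and HOXC13 overlaps its antisense gene; 4 of the 11 called genes, HOXA2, HOXA5, HOXB7 and HOXB13, overlap none.

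Upstream sequence is shown for HOXC4 and HOXA4, paralogs that both fell, and for HOXA2, which rose. Promoters from RefSeq (GRCh38.p14) were matched for 16 of the 35 genes, among them 4 of the 11 called. The window matched to HOXC4 is also the one matched to HOXC5, which was not called (-0.11 ± 0.328). The 250 bases before the annotated start are printed with capitals at 4 motifs searched on both strands: TGATNNAT, bound by HOX with PBX, the GC box GGGCGG, the CCAAT box CCAAT and the TATA box TATAAA. No match overlapped another in the windows shown.
HOXC4, chr12:54016638-54016887, plus strand: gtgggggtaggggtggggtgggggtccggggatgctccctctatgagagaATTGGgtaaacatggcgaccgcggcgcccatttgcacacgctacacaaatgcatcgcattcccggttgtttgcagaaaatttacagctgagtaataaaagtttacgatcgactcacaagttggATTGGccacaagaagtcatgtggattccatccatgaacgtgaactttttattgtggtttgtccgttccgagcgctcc
HOXA4, chr7:27130758-27131007, minus strand: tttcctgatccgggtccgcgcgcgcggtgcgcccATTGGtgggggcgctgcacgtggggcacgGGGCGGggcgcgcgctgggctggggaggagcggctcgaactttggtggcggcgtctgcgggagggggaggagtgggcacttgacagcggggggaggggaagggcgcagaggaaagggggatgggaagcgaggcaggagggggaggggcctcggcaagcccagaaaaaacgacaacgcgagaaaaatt
HOXA2, chr7:27102684-27102933, minus strand: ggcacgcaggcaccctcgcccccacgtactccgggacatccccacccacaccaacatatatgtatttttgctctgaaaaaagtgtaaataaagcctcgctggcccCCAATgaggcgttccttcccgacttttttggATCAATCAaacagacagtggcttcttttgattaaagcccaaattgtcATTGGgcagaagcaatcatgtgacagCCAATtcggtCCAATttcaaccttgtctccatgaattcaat
The HOXC4 window held 2 CCAAT matches, and the HOXA4 window 1 CCAAT and 1 GC box match. The HOXA2 window held 4 CCAAT matches and 1 match to TGATNNAT. Among 34788 distinct windows of this length, 32.0% held CCAAT, 42.6% GGGCGG, 10.8% TATAAA and 6.49% TGATNNAT.

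In the HOXB cluster (chromosome 17), HOXB7 and HOXB13 fell and HOXB3 rose. HOXB7, a central gene often studied in carcinomas, had 22.9, 22.4 and 22.4 CPM in the MTA1 libraries, against 40.5, 41.5 and 41.5 CPM in Ctrl. The groups did not overlap, with a mean of 54.8% of Ctrl (-0.87 ± 0.0497, edgeR adjusted p = 1.26e-11). HOXB13, the prostate lineage gene, had 23, 20 and 15 counts in the MTA1 libraries, against 53, 43 and 56 counts in Ctrl. These counts correspond to 0.755, 0.631 and 0.483 CPM in the MTA1 libraries, against 1.72, 1.31 and 1.70 CPM in Ctrl. HOXB13 was thus a low-level gene in this line, lower in every MTA1 library, with a mean of 39.5% of Ctrl (-1.33 ± 0.235, edgeR adjusted p = 6.31e-05), and its log2 fold change was the lowest of the 24 tested HOX genes. In FPKM it stood at 0.183 ± 0.0404 FPKM in the MTA1 group and 0.447 ± 0.0577 FPKM in Ctrl.

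HOXB3, which patterns the hindbrain in the mouse, had 27, 23 and 27 counts in the MTA1 libraries, against 8, 21 and 19 counts in Ctrl. Ctrl replicate 1 was well below the other Ctrl libraries. HOXB3 passed as higher (0.73 ± 0.297, edgeR adjusted p = 0.0415), but the call ended without MTA1 replicate 1 (adjusted p = 0.0967), 2 (0.0509) or 3 (0.0878), without Ctrl replicate 1 (0.228) or 3 (0.0533), and with DESeq2 (0.112). The HOXB3 call was also lost on log2(FPKM + 0.1) and log2(FPKM + 1), filtered or not, and held in 8 of the 17 alternatives that tested it. HOXB6 had 2.69, 2.78 and 2.74 CPM in the MTA1 libraries, against 3.27, 3.36 and 3.43 CPM in Ctrl. Its libraries did not overlap, but it missed the threshold (-0.29 ± 0.126, edgeR adjusted p = 0.0514) and passed it under 5 of 18 alternatives. HOXB5 had 3.15, 3.82 and 3.16 CPM in the MTA1 libraries, against 3.30, 2.90 and 3.31 CPM in Ctrl. It overlapped between the groups and was not called (0.09 ± 0.131), nor were HOXB4 (-0.06 ± 0.281), which acts in blood stem cells, and HOXB8 (0.14 ± 0.365). HOXB4 had 18 to 36 counts in the MTA1 libraries and 22 to 35 in Ctrl, and HOXB8 had 9 to 22 in the MTA1 libraries and 10 to 21 in Ctrl.

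**Figure D3:**
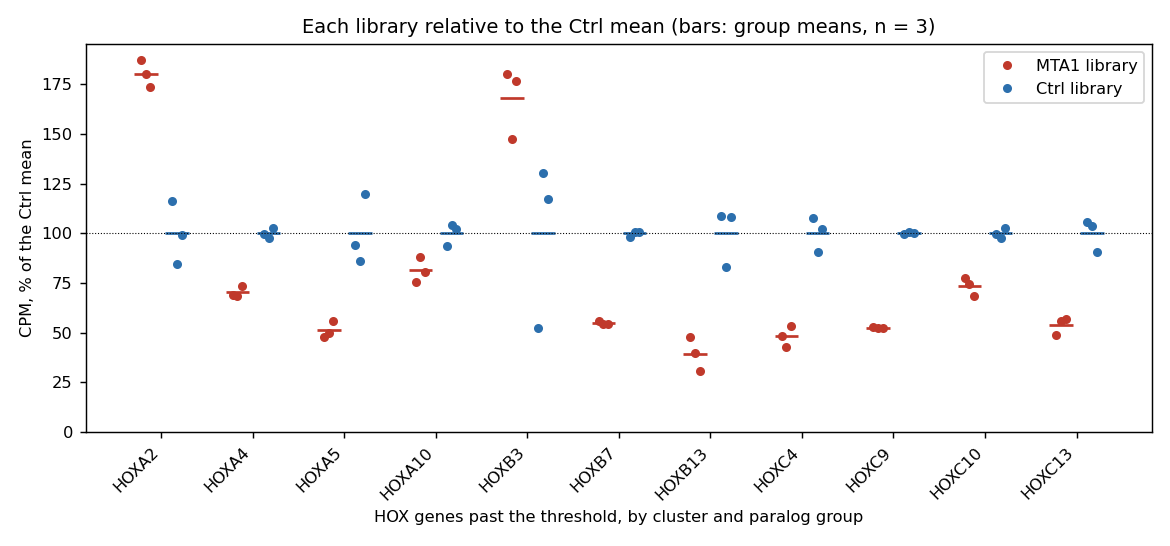
CPM of the 11 called HOX genes in each library, as a percentage of the Ctrl mean; points are libraries, 3 of the MTA1 group left of 3 of Ctrl, and short bars are group means. HOXC9 and HOXB7 vary little within a group, while the Ctrl libraries of HOXB3 spread widely.

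In the HOXA cluster (chromosome 7), the adjacent central genes HOXA4 and HOXA5 and the posterior HOXA10 fell, whereas HOXA2 rose. HOXA4 had 6.76, 6.69 and 7.15 CPM in the MTA1 libraries, against 9.74, 9.56 and 10.0 CPM in Ctrl. The groups did not overlap (-0.51 ± 0.0785, edgeR adjusted p = 1.41e-05). HOXA5, needed for lung development in the mouse, had 2.36, 2.46 and 2.77 CPM in the MTA1 libraries, against 4.66, 4.24 and 5.93 CPM in Ctrl. Ctrl replicate 3 was the highest library, and all MTA1 libraries lay below all Ctrl libraries (-0.97 ± 0.140, edgeR adjusted p = 6.71e-06). HOXA10, a regulator of uterine development, had 4.40, 5.14 and 4.70 CPM in the MTA1 libraries, against 5.47, 6.08 and 5.96 CPM in Ctrl. Its fall was small (-0.30 ± 0.101, edgeR adjusted p = 0.0165) and was not called without MTA1 replicate 1 (adjusted p = 0.074) or Ctrl replicate 2 (0.0545), or with DESeq2 (0.0569). The call was also lost with scaling by library size only, and on log2(FPKM + 0.1) and log2(FPKM + 1), filtered or not. It held in 11 of 18 alternatives.

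HOXA2, which specifies the second branchial arch in the mouse, had 35, 35 and 33 counts in the MTA1 libraries, against 22, 17 and 20 counts in Ctrl. It rose without overlap between the groups, at 1.11 ± 0.0425 CPM in the MTA1 group and 0.613 ± 0.0965 CPM in Ctrl (0.85 ± 0.237, edgeR adjusted p = 0.00455). HOXA9, known for its role in leukaemia, had 10, 16 and 20 counts in the MTA1 libraries, against 4, 14 and 8 counts in Ctrl. The groups overlapped and HOXA9 was not called (0.87 ± 0.392, edgeR adjusted p = 0.0658); it passed as higher without MTA1 replicate 1 (adjusted p = 0.03) or Ctrl replicate 2 (0.0193). HOXA3 had 3.05, 3.56 and 2.997 CPM in the MTA1 libraries, against 3.495, 3.88 and 3.53 CPM in Ctrl. HOXA11 had 3.51, 3.53 and 3.19 CPM in the MTA1 libraries, against 2.88, 3.27 and 3.22 CPM in Ctrl. Neither was called, at -0.18 ± 0.125 for HOXA3 and 0.13 ± 0.125 for HOXA11, and their groups overlapped. HOXA13 (-0.21 ± 0.237), with 26 to 48 counts in a library, was not called either.

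The other 11 genes had too few counts to be tested. The 5 HOXD genes listed (chromosome 2), HOXD3, HOXD9, HOXD10, HOXD11 and HOXD12, had 0 to 2 counts in the MTA1 libraries and 0 or 1 in Ctrl. A count of 0 allows up to 3 counts, which is 0.0946 to 0.0984 CPM in an MTA1 library and 0.0912 to 0.0971 CPM in a Ctrl library, counting error only. HOXC12 had 0, 0 and 0 counts in the MTA1 libraries, against 0, 3 and 0 counts in Ctrl, and HOXB1 had 0, 0 and 1 counts in the MTA1 libraries, against 0, 0 and 2 counts in Ctrl. HOXA6, HOXA7, HOXB2 and HOXB9 had 0 to 6 counts in the MTA1 libraries and 0 to 8 in Ctrl. Levels thus changed sharply within a cluster, since HOXA6 and HOXA7 follow HOXA5, and HOXB9 lies near HOXB7.

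By position, few genes were called in each range, and their shares are to be read against the 28.6% lower and 29.5% higher of all tested genes. Of 4 tested anterior genes (paralog groups 1 to 3), 2 rose and none fell. Of 11 tested central genes (groups 4 to 8), 4 fell and none rose, and of 9 tested posterior genes (groups 9 to 13), 5 fell and none rose. The share of central genes that fell, 36.4%, is near the background. Both anterior genes that rose lay below 2 CPM, the HOXB3 call did not hold in most repeats with a library left out, and the difference between positions was not tested. Genes of one paralog group often had unlike values. HOXA4 and HOXC4 fell while HOXB4 was at -0.06 ± 0.281, HOXA5 fell while HOXB5 was at 0.09 ± 0.131, and HOXC9 fell while HOXA9 was at 0.87 ± 0.392. In group 10 both HOXA10 and HOXC10 fell, and in group 13 HOXB13 and HOXC13 fell while HOXA13 was at -0.21 ± 0.237. By cluster, 4 of 8 tested HOXC genes, 2 of 7 HOXB genes and 3 of 9 HOXA genes fell; the HOXB and HOXA shares, 28.6% and 33.3%, are near the 28.6% of all tested genes.

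Long non-coding RNAs from the HOX clusters were mostly lower. Of 9 tested, 7 fell and none rose; their median log2 fold change was -0.47. On log2(FPKM + 1) without a filter 4 were lower in place of 7. Of all tested long non-coding genes 43.4% were called, 25.1% lower and 18.3% higher. HOXC13-AS, antisense to HOXC13, had 0.853, 0.978 and 0.967 CPM in the MTA1 libraries, against 3.66, 3.48 and 4.07 CPM in Ctrl. The groups were far apart (-1.998 ± 0.164, edgeR adjusted p = 2.67e-09), beside the -0.89 ± 0.210 of HOXC13 itself. HOTAIR, a HOXC transcript reported to bind polycomb proteins, had 3.54, 5.49 and 5.19 CPM in the MTA1 libraries, against 7.73, 8.64 and 7.81 CPM in Ctrl. MTA1 replicate 1 was the lowest, and the groups did not overlap (-0.76 ± 0.120, edgeR adjusted p = 1.68e-05). HOTAIRM1, a HOXA transcript known from myeloid cells, had 22.5, 24.1 and 25.5 CPM in the MTA1 libraries, against 30.8, 31.6 and 31.2 CPM in Ctrl. It fell (-0.38 ± 0.0548, edgeR adjusted p = 6.59e-06), while HOXA2 from the same end of the cluster had a log2 fold change of 0.85 ± 0.237.

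HOXA10-AS (-1.08 ± 0.300), HOXA-AS2 (-0.47 ± 0.0796), HOXC-AS3 (-0.24 ± 0.0797) and HOXA11-AS (-0.22 ± 0.0575) fell as well. HOXA11-AS averaged 20.7 ± 0.334 CPM in the MTA1 group and 24.1 ± 1.49 CPM in Ctrl, while HOXA11 itself was not called. HOXC-AS3 was not called without MTA1 replicate 3 (adjusted p = 0.0678) or Ctrl replicate 3 (0.0641). HOXC-AS1 (-0.50 ± 0.270) and HOXC-AS2 (0.57 ± 0.358) were not called, though HOXC-AS2 passed as higher without Ctrl replicate 3 (adjusted p = 0.0382). HOTTIP, HAGLR, HAGLROS and HOXB-AS3 had too few counts to be tested. Exons of 18 of the 35 HOX genes overlap a gene on the opposite strand in GENCODE 29. The library kit keeps strand, per the labels, but the strand setting of the counting is not given, so a HOX gene and its antisense partner may share reads.

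**Figure D4:**
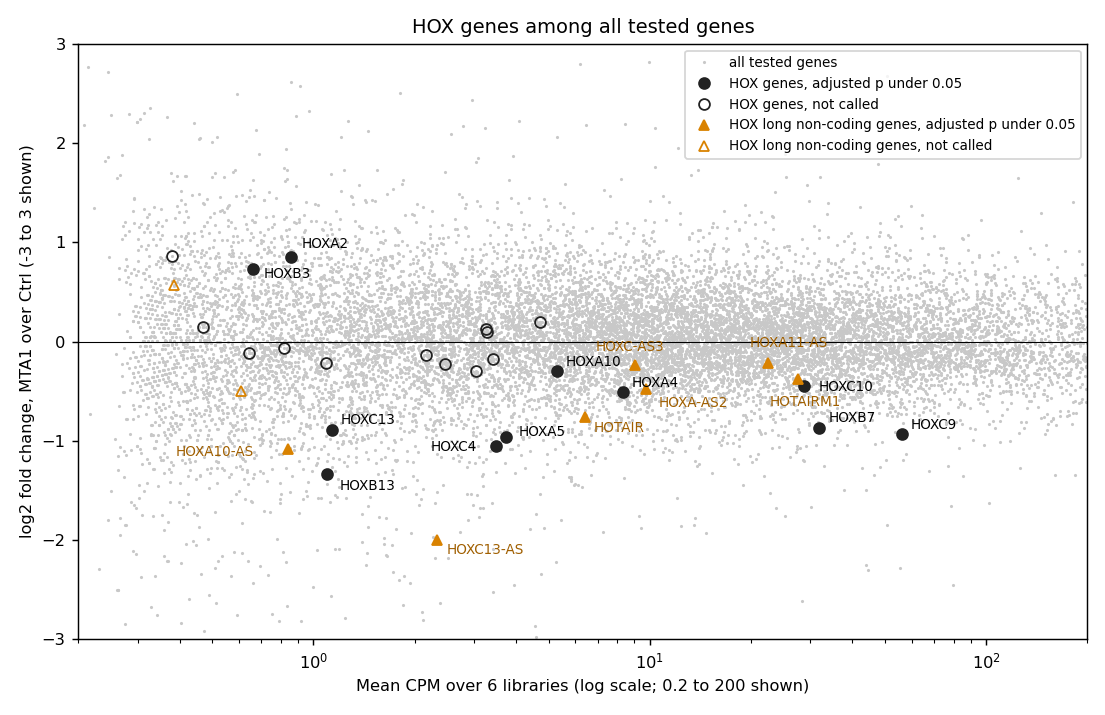
Log2 fold change of MTA1 over Ctrl against mean CPM (log axis) for the tested genes within the ranges shown (grey), named HOX genes (circles) and HOX long non-coding genes (triangles), filled where the adjusted p is under 0.05. The HOX genes above 10 CPM, HOXC9, HOXB7 and HOXC10, lie below 0, and the genes that rose, HOXA2 and HOXB3, lie below 2 CPM.

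Genes of the TALE family, which holds the HOX cofactors and also TGIF1 and TGIF2, changed in both directions. Of 10 tested TALE genes 3 fell and 1 rose, beside 28.6% lower and 29.5% higher over all tested genes, so the share that fell is near the background. Their median was -0.0011. MEIS3 had 7.22, 6.91 and 8.02 CPM in the MTA1 libraries, against 15.9, 15.7 and 16.3 CPM in Ctrl (-1.11 ± 0.0738, edgeR adjusted p = 1.15e-10). PKNOX1 (-0.50 ± 0.0770) and the repressor TGIF2 (-0.26 ± 0.0540) fell too. MEIS2 rose slightly (0.31 ± 0.109, edgeR adjusted p = 0.0211); it was not called without MTA1 replicate 2 (adjusted p = 0.0791), Ctrl replicate 2 (0.0671) or Ctrl replicate 3 (0.0748). PBX2 (0.12 ± 0.0583), PBX3 (-0.046 ± 0.152), PBX4 (0.17 ± 0.118), MEIS1 (0.14 ± 0.131) and TGIF1 (-0.06 ± 0.0646) were not called.

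The chromatin regulators that silence or maintain HOX genes were mixed. Among 32 polycomb genes 11 fell (34.4%) and 8 rose (25%), near the 28.6% and 29.5% of all tested genes, and the median was -0.041. SUZ12, a core subunit of the methylating complex PRC2, averaged 30.6 ± 1.15 CPM in the MTA1 group and 39.9 ± 0.774 CPM in Ctrl (-0.39 ± 0.0503, edgeR adjusted p = 1.75e-06). RBBP7 (-1.003 ± 0.0395) and RBBP4 (-0.29 ± 0.0424), histone-binding subunits shared with NuRD, fell as well. EZH1, the alternative methyltransferase of PRC2, averaged 16.4 ± 0.805 CPM in the MTA1 group and 9.66 ± 1.20 CPM in Ctrl (0.76 ± 0.0803, edgeR adjusted p = 9.73e-08), and PCGF1 (0.39 ± 0.0638) rose. EZH2, the main methyltransferase, was not called (0.017 ± 0.0496). In place of 11, the polycomb genes that were lower numbered 7 with scaling by library size only and 5 or 6 on the FPKM scales.

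Another list, of genes for MLL complexes and other HOX regulators, mostly but not only activators, held 24 tested genes. Of these, 10 rose (41.7%) and 6 fell (25%), beside 29.5% and 28.6% of all tested genes, and the median was 0.08. MEN1 (0.33 ± 0.0661), which links MLL to its target genes, DOT1L (0.44 ± 0.0519), a histone H3 methyltransferase, and the elongation factor ELL2 (0.34 ± 0.0519) rose. MLLT1 (-0.79 ± 0.0513) and MLLT3 (-0.49 ± 0.0777), chromatin readers of elongation complexes, fell. With scaling by library size only, 12 of these genes were higher and 3 lower, and on log2(FPKM + 1) without a filter 6 were higher and 3 lower. CDX2, which activates HOX genes in the early embryo of the mouse, averaged 2.59 ± 0.357 CPM in the MTA1 group and 4.19 ± 0.129 CPM in Ctrl (-0.69 ± 0.129, edgeR adjusted p = 0.000122). Of 9 loop anchor and cohesin genes 4 fell (44.4%, beside 28.6% of all tested genes), among them MAZ (-0.43 ± 0.0466), NIPBL (-0.19 ± 0.0469) and STAG1 (-0.16 ± 0.0539), and SMC3 (0.27 ± 0.0420) and RAD21 (0.22 ± 0.0448) rose. STAG1 was not called without MTA1 replicate 1 (adjusted p = 0.0779), and in place of 4, 2 of the loop anchor and cohesin genes were lower with scaling by library size only and 1 on each FPKM scale.

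Retinoic acid induces anterior HOX genes in the embryo, and genes of its pathway were split. Of 11 tested 4 rose and 4 fell (36.4% each way, near the 29.5% and 28.6% of all tested genes), and the median was -0.12. The retinol uptake receptor STRA6 averaged 31.9 ± 1.73 CPM in the MTA1 group and 14.6 ± 1.15 CPM in Ctrl (1.13 ± 0.0633, edgeR adjusted p = 9.2e-12), and the binding protein CRABP2 (0.34 ± 0.0389) and the receptor RARG (0.20 ± 0.0595) rose. RARG was not called without MTA1 replicate 1 (adjusted p = 0.0509) or Ctrl replicate 2 (0.0566). The receptors RXRA (-0.72 ± 0.0450) and RARA (-0.52 ± 0.0838) fell.

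Of 15 listed homeobox genes related to HOX genes by descent or linkage, 10 had enough counts to be tested. Of these 9 fell (90%) and none rose, beside 28.6% and 29.5% of all tested genes, and their median log2 fold change was -0.84. PDX1, the ParaHox gene of the pancreas, averaged 0.194 ± 0.0360 CPM in the MTA1 group and 1.32 ± 0.0646 CPM in Ctrl (-2.74 ± 0.290, edgeR adjusted p = 1e-07). MEOX1 averaged 2.01 ± 0.357 CPM in the MTA1 group and 4.17 ± 0.265 CPM in Ctrl (-1.05 ± 0.143, edgeR adjusted p = 3.01e-06), and DLX3 averaged 0.235 ± 0.0942 CPM in the MTA1 group and 1.15 ± 0.190 CPM in Ctrl (-2.27 ± 0.314, edgeR adjusted p = 3.63e-06). DLX1, DLX2, DLX4, EN1, MNX1 and CDX2 fell too. Counts of PDX1, DLX2 and DLX3 were low, at 4 to 10 in the MTA1 libraries and 15 to 45 in Ctrl. DLX1 (-0.18 ± 0.0677) was not called without MTA1 replicate 1 (adjusted p = 0.0793) or 2 (0.143) or Ctrl replicate 2 (0.0619) or 3 (0.13). GBX2 (-0.39 ± 0.172, edgeR adjusted p = 0.0586) missed the threshold, and was called lower with MTA1 replicate 2 left out (adjusted p = 0.0149) or Ctrl replicate 1 left out (0.0454). A wider list, of protein-coding genes outside the HOX clusters whose description names a homeobox, was drawn up after values were seen. Of its 67 tested genes 30 fell and 6 rose, where 29.8% of all tested protein-coding genes fell and 31.6% rose. Only the HOX genes were left out of it, so it is not separate from the genes named above. Its lowest log2 fold change, -2.74, is that of PDX1.

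**Figure D5:**
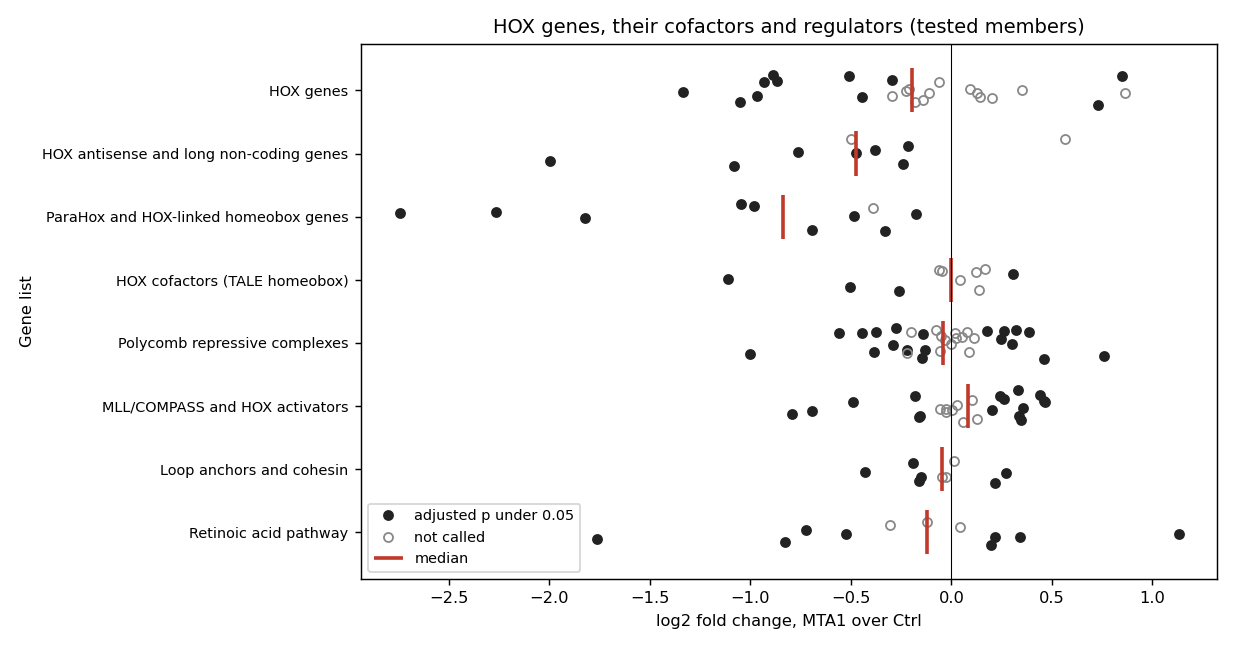
Log2 fold change of MTA1 over Ctrl for the tested HOX genes, HOX long non-coding genes, related homeobox genes, TALE genes and regulators. Each point is a gene, filled where the adjusted p is under 0.05, and the red bar is the list's median. The related homeobox genes and the HOX long non-coding genes have medians of -0.84 and -0.47, and the other medians lie between -0.20 and 0.08.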

How the data were processed

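RNA of 6 PC-3 libraries was prepared with a strand-keeping total RNA kit, per the labels. The authors deposited read counts per gene as whole numbers, and FPKM values given to 2 decimals. Aligner, counting tool, strand setting, genome build and annotation: not given in the sources used here. DESeq2 is named, with no role, in the submitters' processing notes. The shMTA1 columns were assigned to the MTA1 samples by their name, and the NC columns to Ctrl by elimination, with replicate numbers kept.

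In R 4.3.3, edgeR 4.0.16 was run on the counts: filterByExpr, TMM scaling and a 2-sided quasi-likelihood test between the groups, with no other term. Benjamini-Hochberg adjustment covered 15423 tested genes, at a threshold of 0.05. The code was tested on simulated data. CPM uses TMM-scaled library sizes. Values are means ± SD (n = 3 libraries); log2 fold changes are MTA1 over Ctrl, ± SE. Tested HOX genes are named, with each library's value from a mean of 2 CPM; of other lists, up to 3 genes per direction with the smallest p. Genes named beyond this rule were chosen after their values were seen. The members and lists were chosen with earlier results of these data known. Alternatives used DESeq2 1.42.0 and limma 3.58.1. Exon overlaps come from GENCODE 29. Some genes, 1 HOX gene among them, are counted but not reported here by name.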

Additional observations from a re-analysis of the deposited data

How the results depend on the processing

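Each result was recomputed under 18 alternatives. HOXC9, HOXB7, HOXC10, HOXA4, HOXA5, HOXC4, HOXC13, HOXB13, HOXA2 and MTA1 kept their direction and call wherever they were tested; HOXA10 and HOXB3 did not. The count of HOX genes that rose, 2 as reported, was 1 with a filter of 1 CPM in 3 libraries, with DESeq2 and on the log2(FPKM + 0.1) and log2(FPKM + 1) scales, filtered or not, 3 with scaling by library size only, and 1 to 3 with a library left out. The HOX genes median log2 fold change, -0.20, was -0.13 with scaling by library size only, -0.30 with the 1 CPM filter, -0.0844 on log2(FPKM + 0.1), -0.0339 on log2(FPKM + 1), filtered or not, and -0.28 to -0.16 with a library left out. Over all genes 4550 were higher and 4404 lower; scaling by library size only gave 5376 and 3574, and log2(FPKM + 0.1) gave 5043 and 3345. Genes that were not called changed sign: HOXB4 was at 0.0064 by library size only and at 0.00139 on log2(FPKM + 1), filtered or not. With a library left out, HOXB4 ran from -0.40 to 0.15, HOXB5 from -0.00454 to 0.14, HOXB8 from -0.19 to 0.54 and HOXC5 from -0.46 to 0.0946. The cause was not tested. Same-numbered libraries share only a number (correlations of their deviations 0.0666, -0.0207, 0.0191); with the replicate number as a block, 9139 genes were called in place of 8954, and 9 HOX genes fell and 3 rose, HOXA9 (adjusted p = 0.045) being added. Genes with few counts, HOXB13 among them, are limited by depth.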
